A study of Rattus norvegicus with 20 samples.

Results

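Transcripts of the cell division cycle and of DNA replication were measured in rat liver after short dosing with tricresyl phosphate (TCP), an organophosphate added to plastics, hydraulic fluids and lubricants. The set was a written list of 38 genes, of which 36 were on the array under their current symbols. They are 36 of the 14217 genes analysed, and Rrm2 and Tpx2 were not analysed here. Where several probe sets measured a gene, the brightest on average stood for it. The genes were listed by what their proteins do in the cell cycle, with no measured value in the rule. The list was nevertheless chosen with earlier results of these data known.

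The samples were livers of 20 male Harlan Sprague Dawley rats, 1 array per rat. Separate rats received TCP in corn oil by oral gavage, once daily on 4 days, at doses of 62.3, 124.5, 248.6, 497.3 or 994.6 mg per kg (n = 3 rats each), or corn oil alone as control (n = 5). The RNA was taken from left lobe tissue, so every array mixes all cell types of the organ, and the labels name no transgene or deletion in any group. Values are RMA expression values on the log2 scale, and a difference is a difference of such values. RMA gives all arrays nearly the same distribution, so a difference is read against the other genes of the array.

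Adult liver divides little, and most hepatocytes rest outside the cycle. A cell that enters the cycle builds G1 and S phase cyclins, loads and fires the MCM helicase for DNA replication and makes nucleotides, and later accumulates the B-type cyclins, CDK1, the spindle and the checkpoint proteins for mitosis. Mitotic transcripts are made late in the cycle and mark dividing cells, whereas several replication genes are also expressed in resting cells. In whole liver, fewer dividing cells and less RNA per dividing cell cannot be told apart.

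None of the 36 genes was called at an adjusted p under 0.05 in any of 8 comparisons by limma. Between the highest doses, 994.6 against 497.3 mg/kg, 0 of 36 were called, where 0.0211% of all 14217 genes were called. At an unadjusted p under 0.05 (7.61% of all genes), 14 of the 36 had a lower mean at 994.6 than at 497.3 mg/kg, and none a higher one. Among all genes 4.5% were lower and 3.11% higher at that level. The median difference of the 36 genes was -0.29, with a range of -1.21 to 0.47, and that of all genes -0.01. In 11 of the 36 genes all 3 values at 994.6 mg/kg lay below all 3 at 497.3 mg/kg, as they did in 6.82% of all genes, and in no member did they all lie above, as in 3.92% of all genes.

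Most of the genes with lower values at 994.6 mg/kg belong to mitosis. Of the 19 measured genes in the 4 mitotic roles (entry, chromosome structure and passenger complex, checkpoint and exit, spindle and cytokinesis), 12 were past an unadjusted p of 0.05, and the median difference was -0.49. All 19 had a negative difference, from -1.21 to -0.00. Of the 17 genes in the G1, replication and nucleotide roles, 2 were past that level and the median difference was -0.04, with 8 positive and 9 negative. The 7 roles were joined into mitosis and G1 with S phase after values were seen, and the difference between the joined groups was not tested.

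**Figure D1:**
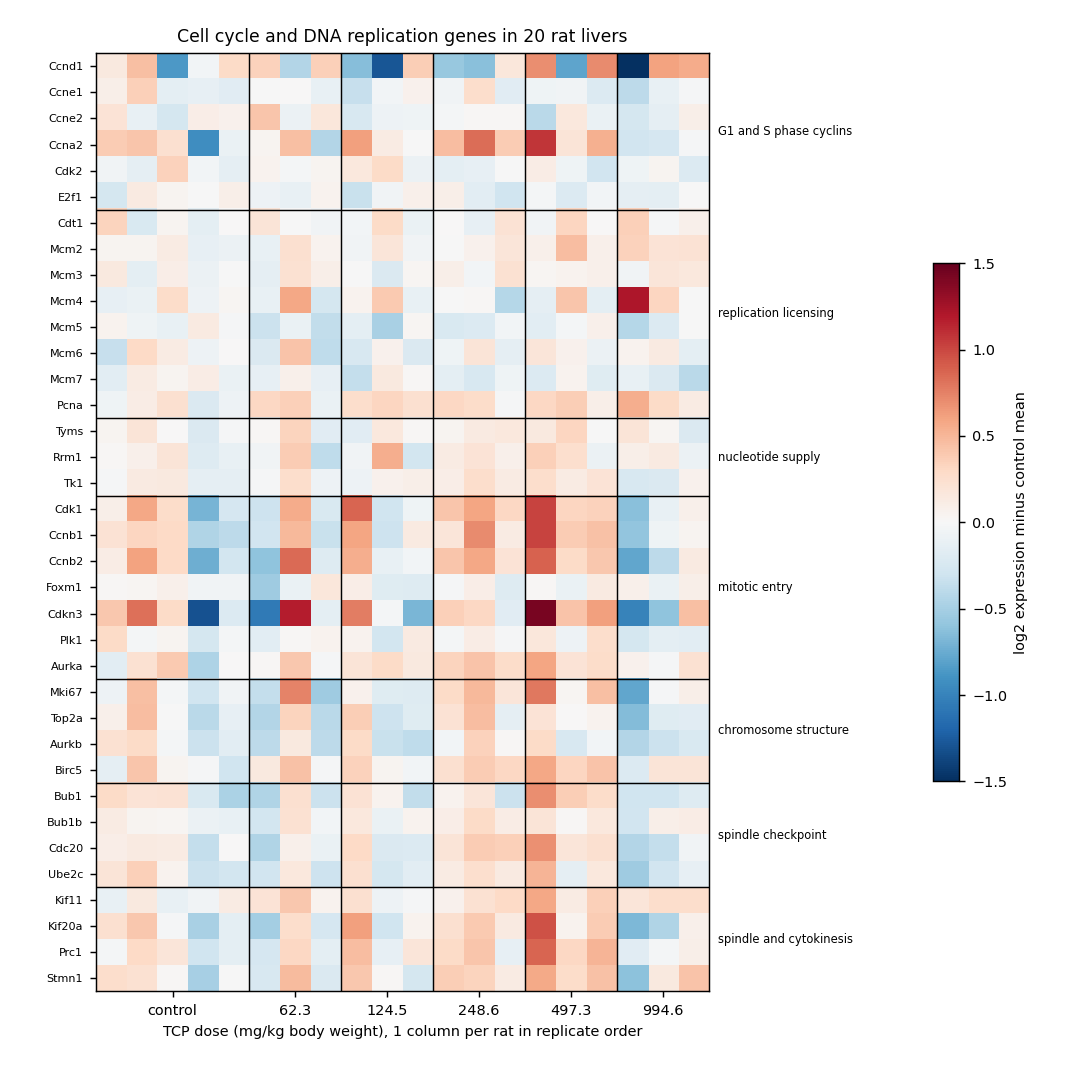
Log2 expression of the 36 measured genes (rows, by role) in the 20 rat livers (columns, from control to 994.6 mg/kg), each minus the mean of the 5 control arrays; red is above and blue below that mean, and the colour scale ends at 1.5 in either direction. Most mitotic rows are red at 497.3 mg/kg, above all in replicate 1, and most are blue in replicate 1 of 994.6 mg/kg and replicate 4 of control, while most replication rows are pale.

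Part of this rested on 2 arrays. Replicate 1 of 497.3 mg/kg was the highest of its group in 17 of the 19 mitotic genes, and replicate 1 of 994.6 mg/kg the lowest of its group in 16. Replicate 1 of 994.6 mg/kg also stood apart over all genes, with a median correlation of 0.985 with the other arrays, where every other array had 0.991 to 0.994. Without replicate 1 of 994.6 mg/kg, 6 of the 36 genes were past an unadjusted p of 0.05, all lower, with a median of -0.22 and 29 negative differences. Without replicate 1 of 497.3 mg/kg, 4 of the 36 were past it, all lower, with a median of -0.18 and 30 negative differences. All 19 mitotic genes were lower at 994.6 mg/kg in both of those fits, with medians of -0.38 without the array of 994.6 mg/kg and -0.37 without that of 497.3 mg/kg. Without each of the other 4 arrays of these doses in turn, 11 to 15 genes were past that level and lower, and 0 or 1 higher. The share of all genes past that level is not given for these fits, so their counts cannot be set against it. The median difference of all genes without replicate 1 of 994.6 mg/kg was -0.01.

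The promoters of 5 mitotic genes are shown because these had the largest differences of the mitotic genes. Genes of this kind are known in mammals to be controlled through CCAAT boxes, bound by NF-Y, and the cell cycle genes homology region (CHR), bound by the DREAM and MuvB complexes, whereas genes of the replication machinery often carry E2F sites. The sequences are the 200 bases before the annotated start in RefSeq (build GRCr8), 5′ to 3′ on the gene's strand. Capitals mark the CCAAT box (CCAAT or ATTGG), the CHR (TTTGAA or TTCAAA) and E2F letters (TTTCCCGC, TTTGGCGC, TTTCGCGC, TTTGCCGC or their reverse complements).
Ccnb1, cyclin B1, chr2:33655226-33655425, minus strand: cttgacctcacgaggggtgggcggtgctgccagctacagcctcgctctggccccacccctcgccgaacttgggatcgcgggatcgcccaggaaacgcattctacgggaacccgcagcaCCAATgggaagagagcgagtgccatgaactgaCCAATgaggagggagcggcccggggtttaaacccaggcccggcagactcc
Ccnb2, cyclin B2, chr8:79981659-79981858, minus strand: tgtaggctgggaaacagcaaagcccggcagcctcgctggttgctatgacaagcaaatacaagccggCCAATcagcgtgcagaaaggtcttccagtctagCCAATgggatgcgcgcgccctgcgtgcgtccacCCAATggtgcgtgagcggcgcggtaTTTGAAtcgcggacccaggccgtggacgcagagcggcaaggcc
Cdk1, the mitotic kinase, chr20:19265093-19265292, plus strand: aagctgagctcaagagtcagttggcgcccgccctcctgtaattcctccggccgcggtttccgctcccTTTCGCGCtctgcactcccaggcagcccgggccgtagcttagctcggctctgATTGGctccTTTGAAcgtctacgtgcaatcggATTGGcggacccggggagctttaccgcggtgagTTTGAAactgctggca
Cdkn3, a phosphatase, chr15:22502186-22502385, plus strand: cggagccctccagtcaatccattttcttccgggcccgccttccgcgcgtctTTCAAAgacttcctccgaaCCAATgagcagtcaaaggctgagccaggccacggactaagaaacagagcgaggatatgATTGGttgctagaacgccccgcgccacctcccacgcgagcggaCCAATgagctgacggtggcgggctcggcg
Kif20a, a cytokinesis kinesin, chr18:26504222-26504421, plus strand: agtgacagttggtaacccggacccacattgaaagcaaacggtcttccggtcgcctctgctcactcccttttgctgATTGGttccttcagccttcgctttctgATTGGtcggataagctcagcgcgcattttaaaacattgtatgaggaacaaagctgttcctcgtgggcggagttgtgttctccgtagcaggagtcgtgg
Mcm5 and Mcm6, subunits of the replicative helicase, are shown for contrast.
Mcm5, chr19:13488613-13488812, plus strand: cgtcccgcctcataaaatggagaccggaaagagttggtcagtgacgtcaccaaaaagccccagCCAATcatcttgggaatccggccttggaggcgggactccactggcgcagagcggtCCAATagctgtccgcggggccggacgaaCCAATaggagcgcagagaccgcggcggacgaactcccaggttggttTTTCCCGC
Mcm6, chr13:42404353-42404552, minus strand: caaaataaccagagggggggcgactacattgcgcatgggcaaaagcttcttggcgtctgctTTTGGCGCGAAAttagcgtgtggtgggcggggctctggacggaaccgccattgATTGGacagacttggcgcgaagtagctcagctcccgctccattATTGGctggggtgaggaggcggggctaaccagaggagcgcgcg

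Ccnb1 and Kif20a held no CHR. In Mcm6 an E2F match on each strand overlapped in TTTGGCGCGAAA. Over the 250 bases before the start, searched on both strands, 28 of the 36 measured genes had an entry, 16 of them mitotic. A CCAAT box was found in 13 of the 16 mitotic promoters (81.2%), in 7 of the 12 others (58.3%) and in 34.3% of all 27457 promoters. A pair or more of CCAAT boxes was found in 9 mitotic promoters (56.2%), in 4 of the 12 others (33.3%) and in 9.77% of all. Those 4 were among the 7 licensing and fork promoters (57.1%), a share like that of the mitotic promoters. A CHR was found in 8 mitotic promoters (50%), in 1 of the 12 others (8.33%) and in 16% of all, and each mitotic promoter with a CHR also had a CCAAT box, a pairing held by 5.76% of all promoters. E2F letters were found in 2 mitotic promoters (12.5%), in 5 of the 12 others (41.7%) and in 1.81% of all. Matches of different motifs overlapped in 2 cases, in Mcm7 and Mki67. A match is a run of letters and not a shown binding site, and the letters were not set against the expression values in a test.

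Mitotic entry was the role with the lowest median, -0.78 over 7 genes. Ccnb1, whose product activates CDK1 at the start of mitosis, had log2 values of 5.26, 5.79 and 5.89 at 994.6 mg/kg, against 6.87, 6.23 and 6.29 at 497.3 mg/kg and 6.07, 6.18, 6.15, 5.40 and 5.46 in control. The 994.6 and 497.3 mg/kg values did not overlap, and the controls overlapped with 994.6 mg/kg and lay below all arrays of 497.3 mg/kg. The difference, 994.6 minus 497.3 mg/kg, was -0.82 ± 0.28 (limma SE; 0.567-fold; 95% interval -1.41 to -0.23; limma adjusted p = 0.505). Its other probe set differed by -0.78.

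Ccnb2, the partner B-type cyclin, had 6.09, 6.48 and 7.01 at 994.6 mg/kg, against 7.76, 7.16 and 7.28 at 497.3 mg/kg and 6.98, 7.47, 7.17, 6.14 and 6.59 in control. Cdk1, the kinase that drives mitosis, had 5.87, 6.39 and 6.58 at 994.6 mg/kg, against 7.51, 6.83 and 6.85 at 497.3 mg/kg and 6.59, 7.08, 6.78, 5.81 and 6.25 in control. In both genes the 994.6 mg/kg values lay below all of 497.3 mg/kg and within or near the wide control range. The differences were -0.87 ± 0.34 for Ccnb2 (limma adjusted p = 0.57) and -0.78 ± 0.32 for Cdk1 (limma adjusted p = 0.576).

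Cdkn3, a phosphatase that acts on cyclin-dependent kinases, had the largest difference and also the widest spread. Its values were 6.19, 6.58 and 7.64 at 994.6 mg/kg, against 8.61, 7.62 and 7.80 at 497.3 mg/kg and 7.59, 8.01, 7.48, 5.88 and 6.98 in control. The highest 994.6 mg/kg array overlapped the lowest of 497.3 mg/kg, and the difference was -1.21 ± 0.54 (95% interval -2.34 to -0.08; limma adjusted p = 0.626). Without replicate 1 of 994.6 mg/kg it was -0.90. Plk1, a kinase of mitotic entry and exit, differed by -0.31 ± 0.13 with no overlap, Aurka, a spindle pole kinase, by -0.27 ± 0.17 with overlap, and Foxm1, a transcription factor for mitotic genes, by -0.00.

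**Figure D2:**
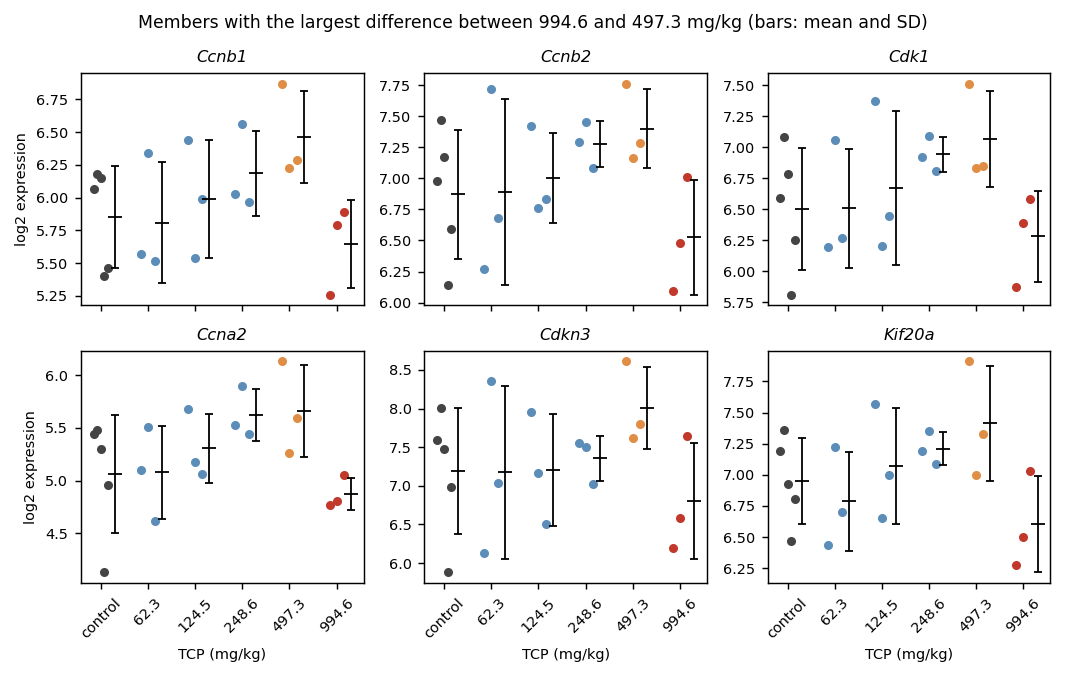
Log2 expression of the 6 genes with the largest difference between 994.6 and 497.3 mg/kg, by TCP dose; points are rats (grey control, blue the 3 lower doses, orange 497.3, red 994.6 mg/kg) and the bars beside them give mean and SD. In all 6 genes the mean is highest at 497.3 mg/kg and lowest at 994.6 mg/kg, and the control and low-dose points spread widely.

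Ccna2, cyclin A2, which works in S phase and into mitosis, had the largest difference of the 17 G1 and S phase genes. It had 4.77, 4.81 and 5.05 at 994.6 mg/kg, against 6.13, 5.26 and 5.59 at 497.3 mg/kg and 5.44, 5.48, 5.30, 4.13 and 4.96 in control. The doses did not overlap, and the difference was -0.79 ± 0.30 (limma adjusted p = 0.558). Kif20a, a kinesin needed for cytokinesis, averaged 6.60 ± 0.39 at 994.6 mg/kg, against 7.41 ± 0.46 at 497.3 mg/kg (SD, n = 3 each) and 6.95 ± 0.34 in control (SD, n = 5). The arrays of 994.6 mg/kg had 6.28, 6.50 and 7.03, the upper arrays of 497.3 mg/kg 7.91 and 7.33, and the controls 7.19, 7.36, 6.93, 6.47 and 6.81. The lowest array of 497.3 mg/kg fell just under the highest of 994.6 mg/kg, so the doses overlapped, and the difference was -0.81 ± 0.27 (limma adjusted p = 0.485).

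The following mitotic genes were chosen after their values were seen. Cdc20, which activates the anaphase-promoting complex, had the smallest adjusted p of the set between these doses. It had 6.45, 6.53 and 6.83 at 994.6 mg/kg, against 7.57, 7.07 and 7.13 at 497.3 mg/kg and 6.98, 7.02, 7.01, 6.53 and 6.89 in control. The doses did not overlap, and the difference was -0.65 ± 0.17 (unadjusted p = 0.0013; limma adjusted p = 0.287). Its 4 other probe sets differed by -0.55, -0.14, -0.09 and -0.08, all in the same direction but mostly by less.

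Bub1, a kinase of the spindle checkpoint, had 4.42, 4.42 and 4.53 at 994.6 mg/kg, against 5.41, 5.09 and 4.99 at 497.3 mg/kg and 5.01, 4.92, 4.93, 4.49 and 4.24 in control. Prc1, which bundles microtubules at the midzone, had 6.69, 6.83 and 6.95 at 994.6 mg/kg, against 7.73, 7.17 and 7.37 at 497.3 mg/kg and 6.83, 7.16, 7.04, 6.56 and 6.71 in control. Neither gene overlapped between the doses, with differences of -0.70 ± 0.21 for Bub1 (limma adjusted p = 0.425) and -0.60 ± 0.19 for Prc1 (limma adjusted p = 0.485). Prc1 at 497.3 mg/kg also lay above all controls, with a difference of 0.56 ± 0.17 (limma adjusted p = 0.152).

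Among the chromosome and passenger complex genes, Mki67, the proliferation marker Ki-67, had 4.55, 5.32 and 5.42 at 994.6 mg/kg, against 6.13, 5.36 and 5.79 at 497.3 mg/kg and 5.26, 5.79, 5.31, 5.03 and 5.28 in control. The doses overlapped, with a difference of -0.66 ± 0.28. Top2a, which untangles sister chromosomes, and Birc5, survivin of the passenger complex, did not overlap between the doses and differed by -0.42 ± 0.23 and by -0.38 ± 0.16. Of the remaining mitotic genes, Ube2c, an enzyme of mitotic exit, differed by -0.49 ± 0.19, Stmn1, a microtubule destabilizer, by -0.44 ± 0.24, and Aurkb, the passenger complex kinase, by -0.33. Bub1b, a checkpoint protein, and Kif11, the motor that separates spindle poles, had smaller differences of -0.15 and -0.11.

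**Figure D3:**
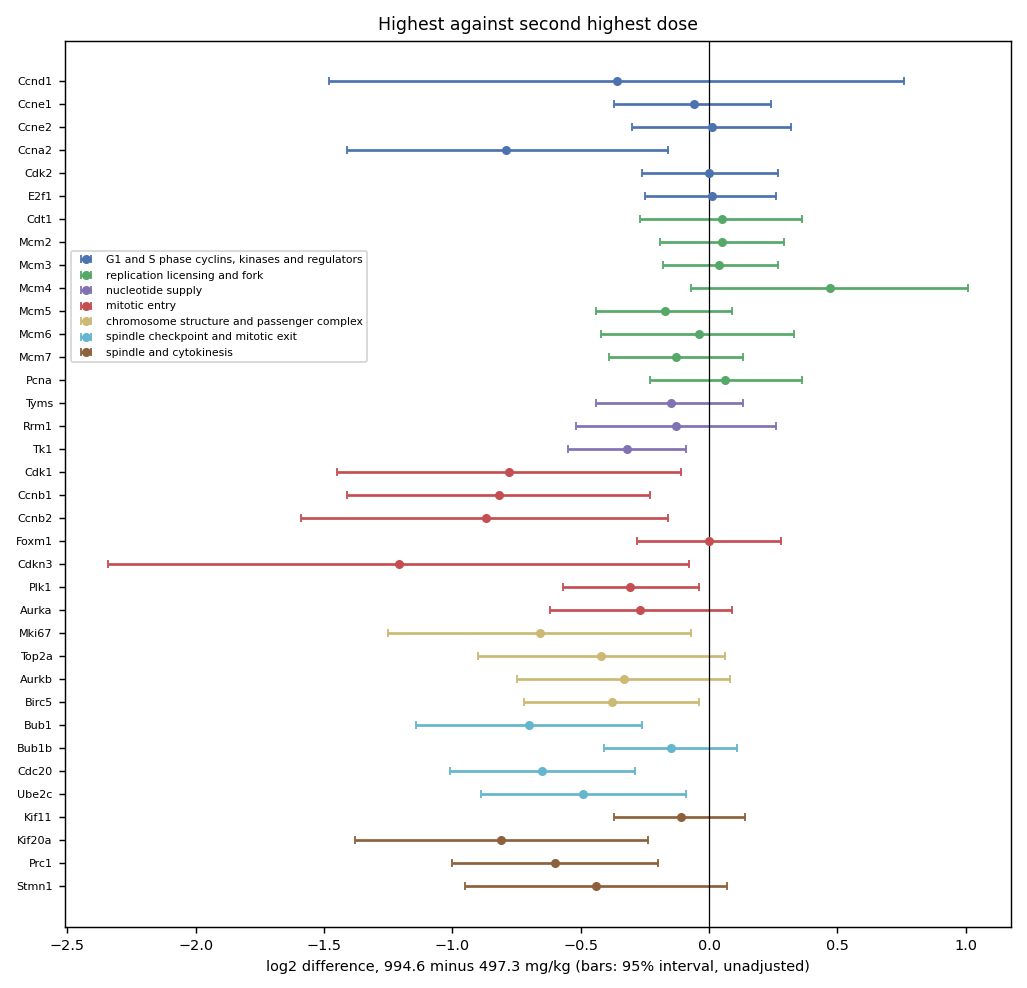
Log2 difference of each of the 36 genes, 994.6 minus 497.3 mg/kg, with its unadjusted 95% interval; colours are the 7 roles. All points of the 4 mitotic roles lie at or below 0, from -0.00 for Foxm1 to -1.21 for Cdkn3, while the replication genes lie on both sides of 0 and Mcm4 is farthest to the right at 0.47.

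Replication and G1 genes lay on both sides of 0. The 8 licensing and fork genes, which load and accompany the replicative helicase, had a median difference of 0.05 between these doses and none past an unadjusted p of 0.05. Mcm4, a helicase subunit, had 8.58, 7.70 and 7.37 at 994.6 mg/kg, against 7.24, 7.79 and 7.22 at 497.3 mg/kg and 7.25, 7.27, 7.65, 7.29 and 7.40 in control. Only replicate 1 of 994.6 mg/kg was above every other array of these groups. The difference was 0.47 ± 0.26 against 497.3 mg/kg and 0.51 ± 0.23 against control (limma adjusted p = 0.728 and 0.231), and without that array it was 0.12 and 0.17.

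Of the other helicase subunits, Mcm2, Mcm3, Mcm5, Mcm6 and Mcm7 lay between -0.17 and 0.05 in this comparison, and Pcna, the sliding clamp of the polymerases, was at 0.06. Cdt1, a licensing factor, was at 0.05. Among the nucleotide genes, Tk1, thymidine kinase, had 7.93, 7.96 and 8.24 at 994.6 mg/kg, against 8.44, 8.29 and 8.38 at 497.3 mg/kg and 8.15, 8.31, 8.32, 8.04 and 8.04 in control. These doses did not overlap, with a difference of -0.32 ± 0.11 (limma adjusted p = 0.504). Its other probe sets differed by -0.32 and 0.26, so they disagreed in direction. Tyms, which makes thymidylate, and Rrm1, the large subunit of ribonucleotide reductase, were at -0.15 and -0.13.

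Ccnd1, cyclin D1, which couples growth signals to G1, had the highest mean of the set and varied widely within doses. It had 8.17, 10.38 and 10.33 at 994.6 mg/kg, against 10.48, 8.99 and 10.49 at 497.3 mg/kg and 9.93, 10.23, 8.92, 9.74 and 10.07 in control. In each of the highest doses 1 array lay far below the other pair. The difference was -0.36 ± 0.53 (95% interval -1.48 to 0.76), and without replicate 1 of 994.6 mg/kg its sign turned, to 0.37. Ccne2, cyclin E2, with the lowest mean of the set, had 4.36, 4.48 and 4.71 at 994.6 mg/kg, against 4.22, 4.78 and 4.52 at 497.3 mg/kg, a difference of 0.01 ± 0.15. Ccne1, Cdk2 and E2f1, its partner genes at the G1 to S transition, differed by -0.06, 0.00 and 0.01.

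The same genes were also set against control, dose by dose, and all these comparisons share the 5 control arrays. At 497.3 mg/kg, 0 of 36 genes were called (0.732% of all genes), and 8 of 36 were past an unadjusted p of 0.05, all higher than control (7.28% of all genes, and 12.2% in either direction). The median difference was 0.19, and 30 of the 36 were above 0, among them all 19 mitotic genes. In 4 genes, Ccnb1, Cdc20, Prc1 and Stmn1, all arrays of 497.3 mg/kg lay above all controls (5.71% of all genes). At 994.6 mg/kg, 0 of 36 were called (4.47% of all genes), 4 were past an unadjusted p of 0.05 and higher (9.97% of all genes), and 1 was lower (8.6%), 18.6% of all genes being past it in either direction. The median was -0.11.

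Those 5 genes at 994.6 mg/kg were mostly replication genes. Their share of the set was below the 18.6% of all genes past an unadjusted p of 0.05 in this comparison. Mcm2 had 6.93, 6.79 and 6.81 at 994.6 mg/kg, against 6.63, 6.63, 6.71, 6.47 and 6.50 in control, with no overlap, as in 6.91% of all genes, and a difference of 0.25 ± 0.10 (limma adjusted p = 0.178). Pcna had 9.78, 9.52 and 9.36 at 994.6 mg/kg, against 9.17, 9.35, 9.47, 9.02 and 9.16 in control, with overlap and a difference of 0.32 ± 0.12 (limma adjusted p = 0.156). Mcm4, given above, was the third, and Kif11 the fourth, at 0.24 ± 0.11 with no overlap with control. The other probe set of Kif11 was at -0.00. Mcm7 was lower, at -0.24 ± 0.11 with overlap.

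At 248.6 mg/kg, 0 of 36 were called (0.0563% of all genes), 2 were past an unadjusted p of 0.05 (6.65% of all genes), and the median was 0.15. At 124.5 mg/kg, 0 were called (0.00703% of all genes), 1 was past an unadjusted p of 0.05 (5.04%), and the median was 0.02. At 62.3 mg/kg, 0 were called (0% of all genes), 1 was past it (2.45%), and the median was -0.02. The dose trend, a slope per dose step from control to 994.6 mg/kg, called 0 of 36 (6.47% of all genes), with 4 past an unadjusted p of 0.05 (20.7%). The smallest adjusted p of a trend was that of Mcm2, with a slope of 0.049 ± 0.016 per step (limma adjusted p = 0.0774). The test for any difference among the 6 groups called 0 of 36 (0.816% of all genes), with 3 past an unadjusted p of 0.05 (10.2%).

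The group with the highest mean was 497.3 mg/kg in 22 of the 36 genes (61.1%), and in 18.1% of all genes. Among the 19 mitotic genes it was 16 (84.2%), the other 3 being highest at 248.6 mg/kg. The lowest mean was at 994.6 mg/kg in 15 of the 19 mitotic genes (78.9%), and in 25.6% of all genes. Of the 8 licensing and fork genes, 5 had their highest mean at 994.6 mg/kg, as did 21.3% of all genes. Each of these counts rests on the same 3 arrays per dose, and so restates the differences above.

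**Figure D4:**
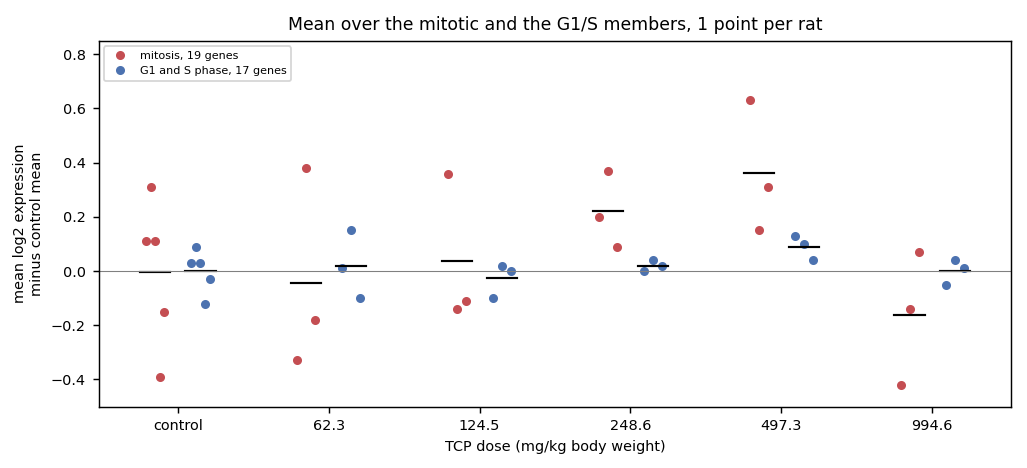
Mean log2 expression over the 19 mitotic genes (red) and the 17 G1 and S phase genes (blue) in each rat, minus the control mean, by TCP dose; lines are group means. The mitotic mean lies at 0.15 to 0.63 at 497.3 mg/kg and at -0.42 to 0.07 at 994.6 mg/kg, with controls from -0.39 to 0.31, and the blue points stay between -0.12 and 0.15.

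The mean over the 19 mitotic genes showed how these genes varied from rat to rat. It was -0.42, -0.14 and 0.07 at 994.6 mg/kg, against 0.63, 0.15 and 0.31 at 497.3 mg/kg and 0.11, 0.31, 0.11, -0.39 and -0.15 in control, each relative to the control mean. The highest doses did not overlap in this mean, replicate 1 of 497.3 mg/kg lay above every control and replicate 1 of 994.6 mg/kg just below every control. The G1 and S phase mean was -0.05, 0.04 and 0.01 at 994.6 mg/kg, against 0.13, 0.10 and 0.04 at 497.3 mg/kg.

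Mitotic genes varied within groups more than most genes, and the same rat was high or low in nearly all of them. The median SD within groups was 0.27 for the 19 mitotic genes, 0.18 for the 17 others and 0.15 for all genes. Cdkn3 and Ccnd1 had SDs of 0.76 and 0.75, each at the 99.6th percentile of all genes, and Ccnb2, Cdk1 and Ccna2 had 0.48, 0.45 and 0.42. Mcm3, Tk1 and Mcm2 had the smallest SDs, 0.13, 0.13 and 0.14. Replicate 2 of 62.3 mg/kg and replicate 1 of 124.5 mg/kg were each the highest of their group in 17 of the 19 mitotic genes, against 43.1% and 26% of all genes. Replicate 2 of 497.3 mg/kg was the lowest of its group in 18 (25% of all genes), replicate 1 of 994.6 mg/kg in 16 (41.2%) and control replicate 4 in 15 (26.6%).

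Low signal limits part of the set. Only Ccnd1, Mcm7, Pcna, Rrm1, Tk1 and Stmn1, 6 of 36, lay above the median mean of all genes, 7.52. No measure of detection was used here.

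Other genes of the pathway were read from 4 further lists. Of 32 measured of 40 other mitosis genes, 0 were called between 994.6 and 497.3 mg/kg. In that comparison 14 were past an unadjusted p of 0.05, all lower, with a median of -0.26. Among all genes 4.5% were lower and 3.11% higher at that level. These genes were read on the same arrays as the main set, so they are not an independent test. Without replicate 1 of 994.6 mg/kg their median was -0.20, with 29 lower and 3 higher. Of 24 measured of 27 other replication genes, 0 were called or past an unadjusted p of 0.05 between these doses, and the median was -0.03. Against control at 994.6 mg/kg, 3 of the 32 other mitosis genes and 1 of the 24 other replication genes were called, where 4.47% of all genes were.

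Fen1, the flap endonuclease that trims Okazaki fragments, rose. It had 7.17, 7.07 and 7.12 at 994.6 mg/kg and 7.24, 7.27 and 6.96 at 497.3 mg/kg, against 6.70, 6.77, 6.82, 6.73 and 6.63 in control. Both doses lay above all controls, by 0.39 ± 0.09 at 994.6 mg/kg (limma adjusted p = 0.0212) and by 0.43 ± 0.09 at 497.3 mg/kg (limma adjusted p = 0.0382). Without replicate 1 of 994.6 mg/kg (limma adjusted p = 0.12) or control replicate 5 (limma adjusted p = 0.0537) the call at 994.6 mg/kg ended, and without any of control replicates 1, 2, 4 and 5 or replicates 1 and 2 of the dose that at 497.3 mg/kg (limma adjusted p = 0.066 to 0.177).

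Cks1b and Cks2, small proteins that bind cyclin-dependent kinases, rose at 994.6 mg/kg. Cks1b had 10.93, 10.28 and 10.27 at 994.6 mg/kg and 10.37, 10.40 and 9.79 at 497.3 mg/kg, against 9.56, 9.68, 9.70, 9.55 and 9.75 in control. Cks2 had 9.21, 9.11 and 9.13 at 994.6 mg/kg and 9.50, 9.06 and 8.84 at 497.3 mg/kg, against 8.37, 8.53, 8.84, 8.15 and 8.47 in control. Both genes at 994.6 mg/kg lay above all controls, by 0.84 ± 0.17 for Cks1b (limma adjusted p = 0.00716) and by 0.68 ± 0.15 for Cks2 (limma adjusted p = 0.0137). Without replicate 1 of 994.6 mg/kg, these calls ended, at 0.62 for Cks1b (limma adjusted p = 0.0795) and 0.65 for Cks2 (limma adjusted p = 0.0819). Cks2 also rose at 497.3 mg/kg, by 0.66 ± 0.15 (limma adjusted p = 0.0479), a call that ended without any of control replicates 1, 2, 4 and 5 or replicates 1 and 2 of the dose.

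Cdc25b, a phosphatase that activates CDK1 at mitotic entry, fell. It had 4.81, 5.50 and 5.50 at 994.6 mg/kg and 5.92, 5.89 and 6.01 at 497.3 mg/kg, against 6.28, 6.81, 6.74, 6.51 and 6.53 in control. No array of either dose overlapped with control, and 994.6 mg/kg lay below 497.3 mg/kg. It was lower than control by a log2 difference of -1.31 ± 0.16 at 994.6 mg/kg (0.404-fold; limma adjusted p = 0.000109), and no alternative tried ended that call. The 62.3 and 248.6 mg/kg arrays also lay below all controls, at 5.97, 6.25 and 6.02 for 62.3 mg/kg and 6.03, 6.04 and 6.06 for 248.6 mg/kg, with neither dose called.

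The slopes per dose step were 0.083 ± 0.016 for Fen1 (limma adjusted p = 0.00334), 0.144 ± 0.028 for Cks1b (0.00337), 0.145 ± 0.024 for Cks2 (0.00107) and -0.207 ± 0.032 for Cdc25b (0.000573). Over the 15 treated arrays alone none of these trends was called (limma adjusted p = 0.105 to 0.292). Of 11 measured of 12 G1 entry genes, 1 was called, in the trend alone, where 6.47% of all genes were. It was Cdc25a, a phosphatase acting at G1 and S phase, at -0.049 ± 0.014 per step (limma adjusted p = 0.0333). That call ended with the mean of its probe sets (-0.018 per step; limma adjusted p = 0.357), with GAPDH as a covariate (limma adjusted p = 0.145), and without any of control replicates 1, 3, 4 and 5, replicates 1 and 3 of 497.3 mg/kg or replicates 1 and 2 of 994.6 mg/kg. Of 16 measured of 17 cell cycle inhibitors, Cdkn1a and Gadd45a were called at 994.6 mg/kg against control, where 4.47% of all genes were. Cdkn1a, the p21 inhibitor, was lower, with a difference of -1.91 ± 0.43 (limma adjusted p = 0.0142). Gadd45a, a stress-induced growth arrest gene, was higher, with a difference of 1.45 ± 0.23 (limma adjusted p = 0.00107). The call of Cdkn1a ended with the mean of its probe sets, at -1.09 in place of -1.91 (limma adjusted p = 0.0656), with GAPDH as a covariate, at -1.84 (limma adjusted p = 0.0552), and without replicate 3 of 994.6 mg/kg (limma adjusted p = 0.0518).

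Between the highest doses Gadd45a had 11.21, 10.76 and 10.41 at 994.6 mg/kg, against 9.29, 10.05 and 9.20 at 497.3 mg/kg. These values did not overlap, and the difference of 1.28 ± 0.25 was not called (limma adjusted p = 0.0898). Cdkn1a had 9.45, 9.05 and 8.67 at 994.6 mg/kg, against 9.76, 10.11 and 9.93 at 497.3 mg/kg, again with no overlap, at -0.88 ± 0.48 (limma adjusted p = 0.724). Ccng1, cyclin G1, a p53 target, was at 0.05 ± 0.17 in the same comparison.

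**Figure D5:**
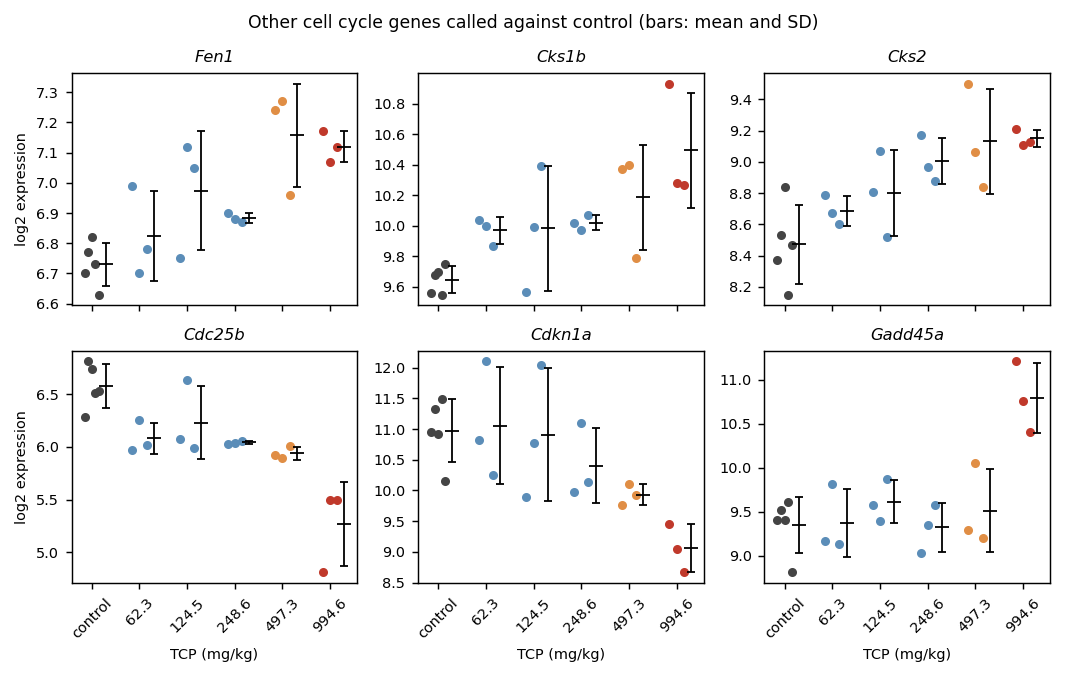
Log2 expression of 6 other cell cycle genes by TCP dose; points are rats (grey control, blue the 3 lower doses, orange 497.3, red 994.6 mg/kg) and the bars beside them give mean and SD. Fen1, Cks1b and Cks2 lie above all controls at 497.3 and 994.6 mg/kg, Cdc25b and Cdkn1a lie lowest at 994.6 mg/kg, and Gadd45a is above every other array only at 994.6 mg/kg.

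Markers of liver cell types and RNA quality were read beside these results. The 7 measured of 8 hepatocyte markers averaged -0.15 to -0.08 at 994.6 mg/kg, -0.09 to -0.04 at 497.3 mg/kg and -0.04 to 0.03 in control, relative to the control mean, so 994.6 mg/kg lay below all controls. At 994.6 mg/kg against control 7 of 7 were lower, 0 were called by limma (4.47% of all genes) and 3 were past an unadjusted p of 0.05 (18.6% of all genes). The 8 measured of 11 erythroid markers averaged -0.85 to -0.31 at 994.6 mg/kg, -0.35 to -0.21 at 497.3 mg/kg and -0.06 to 0.08 in control on the same scale. The lowest value, -0.85, was that of replicate 1 of 994.6 mg/kg, the array that was lowest of its group in 16 of the 19 mitotic genes. Replicates 2 and 3 of 994.6 mg/kg kept the same order, with mitotic means of -0.14 and 0.07 and erythroid means of -0.37 and -0.31. At 62.3 mg/kg the order was also the same, with mitotic means of -0.33, 0.38 and -0.18 and erythroid means of -0.17, -0.10 and -0.14. In control and at 124.5, 248.6 and 497.3 mg/kg the orders differed. Replicate 1 of 497.3 mg/kg, with a mitotic mean of 0.63, had an erythroid mean of -0.33. Control replicate 4, with a mitotic mean of -0.39, had an erythroid mean of -0.02. Between the highest doses 0 of the 8 erythroid markers were called by limma, and 2 were past an unadjusted p of 0.05 (7.61% of all genes). At 994.6 mg/kg against control 3 of the 8 fell, where 4.47% of all genes were called in either direction. They were Alas2 (-1.63; limma adjusted p = 0.000385), Hbb (-1.54; limma adjusted p = 0.00129) and Ahsp (-0.53; limma adjusted p = 0.0118). The same 3 fell in the trend, which called 6.47% of all genes. Ahsp was not called at 994.6 mg/kg without replicate 1 of that dose (limma adjusted p = 0.086) or with GAPDH as a covariate (limma adjusted p = 0.0581). The 5 measured of 6 cholangiocyte markers averaged 0.10 to 0.32 at 994.6 mg/kg, 0.12 to 0.91 at 497.3 mg/kg and -0.16 to 0.14 in control. Of these 5, Epcam, an epithelial adhesion protein of bile ducts, rose by 0.69 ± 0.14 at 994.6 mg/kg and by 0.86 ± 0.14 at 497.3 mg/kg (limma adjusted p = 0.00632 and 0.00476). Among all genes 4.47% were called at 994.6 mg/kg against control and 0.732% at 497.3 mg/kg. The 3′ minus 5′ signal of the GAPDH control transcript, a measure of RNA quality, was 0.61 to 0.84 at 994.6 mg/kg, 0.71 to 0.90 at 497.3 mg/kg and 1.13 to 1.56 in control. It was 0.86 to 1.10 at 248.6 mg/kg, 0.76 to 2.58 at 124.5 mg/kg and 0.87 to 1.11 at 62.3 mg/kg. The highest value of all arrays, 2.58, was that of replicate 2 of 124.5 mg/kg. Of 8 T and NK cell, 6 Kupffer cell and macrophage, 3 B cell, 4 neutrophil and 5 endothelial markers measured, 0 were called between the highest doses, at 994.6 mg/kg against control or in the trend by limma. At an unadjusted p under 0.05 between the highest doses (7.61% of all genes), 1 T and NK cell and 1 B cell marker passed. In the trend alone, which called 6.47% of all genes, 2 of 7 stellate markers, Reln and Pdgfrb, and 1 of 7 hepatocyte markers, Cps1, were called lower. These calls ended under many alternatives, among them GAPDH as a covariate for Pdgfrb (-0.04 in place of -0.083 per step; limma adjusted p = 0.306) and Reln (limma adjusted p = 0.18), the mean of its probe sets for Cps1 (limma adjusted p = 0.237), and single control arrays left out for all 3. The part of these markers and of RNA quality in the differences of the cell cycle genes was not tested.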

How the data were processed

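Liver RNA of 20 rats was measured on 1-colour Affymetrix arrays, 1 array per rat, and samples were grouped by the dose in their titles. What the authors deposited is on the log2 scale; the submitters' processing notes name RMA, with no version. The values run from 2.74 to 15.4. The number of arrays limits the precision. Of 31042 probe sets other than controls, 20826 could be tied to 1 symbol, 436 to several and 9780 to none here. The probe set with the highest mean per gene left 14217 genes, with no filter on low values.

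limma 3.58.1 in R 4.3.3 fitted 1 mean for each of the 6 groups over the 20 arrays (lmFit and eBayes), with 14 residual and 4.77 prior degrees of freedom. The comparisons were 994.6 with 497.3 mg/kg, each dose with control, a slope on dose step, and a moderated F test over the 6 groups. Calls rest on Benjamini-Hochberg adjustment over all 14217 genes, at 0.05. All adjusted p-values are limma's, unadjusted p-values are of the same fit, and errors of differences are its standard errors. Tested on simulated data of 14217 genes, the fit of 994.6 against 497.3 mg/kg found 89% of the genes given a log2 shift of 1 and 47% of those given a shift of 0.5, 100 of each, beside 3 false calls. The shifted genes were drawn at random from all genes, with noise independent between genes. The mitotic genes had a median SD within groups of 0.27, against 0.15 for all genes. They were also high or low in the same rats, so these shares do not describe them.

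The genes, their roles, the other pathway lists and the marker lists were chosen with earlier results of these data known. Named genes were the 6 with the largest difference between the highest doses, the 4 with the largest difference at 994.6 mg/kg against control, the highest and lowest by mean, called genes of the other lists (up to 3 per direction and comparison, otherwise the 2 with the largest difference), and Cdkn1a, Gadd45a, Ccng1, Alas2 and Hbb. Other genes named were chosen after their values were seen.

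Promoter sequences are RefSeq's (build GRCr8), matched by symbol. Alternatives covered the use of probe sets, a filter, normalization, eBayes options, array weights, GAPDH, a replicate block, fits to fewer groups, a slope on mg/kg and each array left out.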

Additional observations from a re-analysis of the deposited data

Results flagged for a closer look

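In 6 of 61 genes tested for a control array far from the other 4, 1 array stood apart, and chance alone flags about 1 in 20. Among the 36 cell cycle genes these were Cdk2, with 7.56 in control replicate 3 against 7.08 to 7.17 in the other controls, and Cdc20, with 6.53 in control replicate 4 against 6.89 to 7.02. Control replicate 4 was also the lowest control in 15 of the 19 mitotic genes. Among the 25 other genes, Cdc25a had 7.20 in control replicate 2 against 7.39 to 7.40, Gadd45a had 8.81 in replicate 5 against 9.40 to 9.61, Ahsp, an erythroid gene, had 6.73 in replicate 2 against 6.50 to 6.53, and Reln, a stellate cell gene, had 9.19 in replicate 4 against 9.49 to 9.53. Dosed groups have 3 arrays each and could not be tested in this way.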

How the results depend on the processing

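The count of 0 called cell cycle genes changed under few alternatives. With array weights 4 of the 36 genes were called between 994.6 and 497.3 mg/kg (Tk1, Bub1, Cdc20 and Kif20a, all lower), beside 122 of all 14217 genes. At 994.6 mg/kg against control 5 were called (Mcm2, Pcna and Kif11 higher, Mcm7 and Cdc20 lower), beside 2841 of all genes. In the trend 1 was called (Kif11), beside 1182 of all genes, and in the test over all groups 3 (Tk1, Cdc20, Kif20a), beside 1247. The cause was not tested. The trend called 2 with quantile normalization (Mcm2 up, Mcm7 down), beside 1305 of all genes. It called 1 with median centring, beside 1141 of all genes, and 1 with the GAPDH covariate, beside 828 (both Mcm2). With an array left out it called 0 to 2, and 2 without replicate 2 of 62.3 mg/kg (Mcm2 and Kif11), beside 902 of all genes. Of 290 alternative values of the named cell cycle genes, 283 kept direction and call and 1, Kif20a with array weights, became called at -0.95. The other 6 changed sign. Ccnd1 between the highest doses was 0.30 with array weights and 0.37 without replicate 1 of 994.6 mg/kg, and against control 0.52 and 0.58, with ranges over the left-out arrays of -0.86 to 0.37 and -0.53 to 0.58; Ccne2 between the highest doses was -0.13 without replicate 1 of 497.3 mg/kg and -0.09 without replicate 3 of 994.6 mg/kg, with a range of -0.13 to 0.15. Of 659 values of the other named genes, 541 kept their call and 118 lost it, none reversing. Same-numbered rats of different groups correlated over 0.1 in 16 of 45 pairs, in their deviations from the group means. The correlations ran from -0.382 to 0.366, with a median of 0.03. The labels name no batch, and the numbers were not taken to pair the rats, but some shared handling cannot be told from these values. With the replicate block, fitted without control replicates 4 and 5, 0 cell cycle genes were called in any comparison, and 310 of all genes at 994.6 mg/kg against control, where 635 were called in the full fit and 250 without the block on the same arrays. Over all alternatives the count of all genes called ran from 1 to 122 between the highest doses (3 in the full fit), from 173 without replicate 1 of 994.6 mg/kg to 2841 with array weights at 994.6 mg/kg against control, from 38 to 281 at 497.3 mg/kg (104), from 31 over treated arrays to 1305 with quantile normalization in the trend (920), and from 48 to 1247 in the test over all groups (116). The calls of Fen1, Cks1b and Cks2 against control ended with the block (limma adjusted p = 0.126, 0.0518 and 0.0811 at 994.6 mg/kg), as did those of Epcam (0.0646 at 994.6 mg/kg). On the same arrays with no block, those of Fen1, Cks2 and Epcam at 994.6 mg/kg had ended already (limma adjusted p = 0.112, 0.0845 and 0.0588). Chosen after seeing the data were the fit without the block on those arrays, the alternatives for the other genes, and the counts and medians with an array left out.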
